A study of Caenorhabditis elegans with 2 samples.

Results

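The genes described here encode 5 noncoding RNAs that belong to no spliceosomal or spliced leader family: rpr-1, mrpr-1, yrn-1, rrn-4.15 and rncs-1. They were taken by symbol from the WBcel235 annotation of Caenorhabditis elegans, 5 of 46890 nuclear genes, and they were chosen by the presence and signal of their peaks in these same lists, so every level and count of peaks at them is a description with no test. The values are peak lists from ChIP-seq, the sequencing of DNA precipitated with a protein, here SNPC-3.4 (T02C12.2 in the labels), which is related to a subunit of the snRNA activating complex SNAPc. The protein carried GFP and FLAG at its C-terminus in the stable transgenic line YL497, and an anti-GFP antibody was used on whole hermaphrodites at the young adult stage, of an age the labels give as unknown. There was 1 group with 2 samples, labelled biological replicates 1 and 2, and chromatin of all tissues was mixed in each.

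SNAPc binds an upstream sequence element of small nuclear RNA genes. In vertebrates the same complex serves RNA polymerase II at most of these genes and RNA polymerase III at U6, where a TATA box follows the element, and the genes of RNase P RNA, RNase MRP RNA and Y RNA have promoters of the U6 kind there. The 5S rRNA genes are also transcribed by RNA polymerase III, but from a promoter that lies inside the gene, and that polymerase ends its transcripts at a run of T on the RNA strand. RNase P trims the leader of precursor tRNAs, RNase MRP is a related enzyme known for cleaving precursor rRNA, Y RNA binds the Ro protein, and rncs-1 is a starvation-induced worm RNA known to inhibit Dicer.

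The bases upstream of mrpr-1 and yrn-1 are shown first because they hold a layout shared with 7 of the 22 annotated U6 genes. A pair of 6-base words, AACCCG on the left and TGTCGG on the right with 5 letters between them, was taken from the 57 genes of the snRNA biotype (snRNA, SL2 and SmY RNA genes) that had a peak, none of which is among the 5 genes. Within 100 bp upstream, AACCCG was in 31 and TGTCGG in 29 of those 57 genes. Where TGTCGG followed AACCCG, the distance was 5 letters in 12 of 12, and the reverse order was not counted. Each stretch runs 5′ to 3′ on the RNA strand, here the plus strand of WBcel235 (ce11), from 80 bases upstream to 20 bases into the RNA. Capitals mark the letters aligned to the word pair and the TATATA word, read from the RefSeq genome sequence at chrII:7200153-7200252 for mrpr-1 and chrIV:7499428-7499527 for yrn-1.
mrpr-1: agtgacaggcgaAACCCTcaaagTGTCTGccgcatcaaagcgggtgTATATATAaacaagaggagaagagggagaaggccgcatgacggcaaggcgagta
yrn-1: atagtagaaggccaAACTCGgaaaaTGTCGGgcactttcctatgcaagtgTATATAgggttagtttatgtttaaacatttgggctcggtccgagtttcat
In yrn-1 the pair matched 11 of 12 letters and lay 66 to 50 bases upstream, with TATATA 30 to 25 bases upstream. In mrpr-1 it matched 10 of 12 letters and lay 68 to 52 bases upstream, with TATATATA 34 to 27 bases upstream. For rpr-1 the positions alone are given: all 12 letters matched at 66 to 50 bases upstream, and TATATA lay 30 to 25 bases upstream.

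The 3′ ends of the RNAs were read in the same way, as the last 15 bases of the RNA and the 15 after it, with the first run of 4 or more T in capitals. They are shown because 4 of the 5 genes held such a run, the letters at which RNA polymerase III is known to stop. A run of 4 or more T was also near the 3′ end of 47.6% of 19973 protein-coding genes, so it is common by itself. The stretches lie at chrII:7200404-7200433 for mrpr-1, chrIV:7499598-7499627 for yrn-1, chrV:17428982-17429011 for rrn-4.15 and chrX:1012333-1012362 for rncs-1, all on the plus strand.
mrpr-1: ctgatcgtcatgcTTTTgcaacattttgaa
yrn-1: tactttgaccgctccTTTTggatttccgag
rrn-4.15: ctggatgttgtaagcTTTTTgcattttttt
rncs-1: ttgaatcaataaagataaaaatgagaaaaa
The run had 4 T in mrpr-1 and in yrn-1 and 5 T in rrn-4.15, which has a second run of 7 T further on. The longest run near the 3′ end of rncs-1 was 1 T.

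The upstream bases of rrn-4.15 are shown beside those of rrn-4.1, a gene of the 5S array, since the summits at rrn-4.15 lay in or next to this flank. The 80 bases upstream come from chrV:17428799-17428878 and chrV:17120888-17120967 on the plus strand, and capitals mark bases that were identical in a global alignment of the pair.
rrn-4.15: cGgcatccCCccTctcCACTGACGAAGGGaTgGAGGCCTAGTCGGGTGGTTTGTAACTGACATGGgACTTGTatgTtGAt
rrn-4.1: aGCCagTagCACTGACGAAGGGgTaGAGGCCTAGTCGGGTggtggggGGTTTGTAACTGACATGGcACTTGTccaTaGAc
Of 87 aligned positions 60 were identical, or 69.0%. The flank of rrn-4.15 did not hold the word pair: its best match anywhere in the 100 bp upstream had 5 mismatches of 12 letters on the RNA strand and 4 on the other, and no TATATA occurred 40 to 15 bases upstream.

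Summits lay near the 5′ end of rpr-1, mrpr-1, yrn-1 and rrn-4.15, and no summit lay within 250 bp of the 5′ end of rncs-1. A gene is called bound here when a summit of the authors' thresholded list lies within 250 bp of its annotated 5′ end. By that rule 4 of the 5 genes were bound, against 4.03% of all 46890 nuclear genes, 5.18% of 7764 genes of biotype ncRNA and 5.00% of 20 nuclear rRNA genes, of which rrn-4.15 was the only bound one. The rule that chose the genes used these peaks, so nothing is read from that difference. Signal is the authors' value per region, with no stated scale, and place is the order by signal in a list, 1 being the highest. The thresholded list held 2101 regions, 26 of them mitochondrial, and its lowest signal was 50.829, against 50.826 in the highest region left out. It was exactly the 2101 highest of the 30000 candidate regions called from both replicates pooled. The lowest of the 4 bound genes, yrn-1, stood at 87.3, and none of the 5 had a region between that and the threshold. Depth is unknown, as the lists hold no read counts.

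The RNase P RNA gene rpr-1 (Y48G10A.7, WBGene00045238, 253 nt) had the highest peak of the 5 genes. It lies at 13463955 to 13464207 on the plus strand of chromosome I, inside an intron (13462739 to 13464761) of ints-8, an Integrator subunit gene on the opposite strand. Its signal was 121 in replicate 1, 235 in replicate 2 and 353 in the pooled list. These were places 59, 43 and 45 of 30000, so rpr-1 stood near the top of every list. With mitochondrial regions left out, its pooled place was 25. The replicate signals averaged 178 ± 80.6 (SD, n = 2), and each replicate list has its own scale, with a median nuclear signal of 11.12 in replicate 1 and 15.03 in replicate 2. Relative to those medians the signal of rpr-1 was 10.9 and 15.7 times as high. The pooled summit fell 30 bp upstream, on the first base of the TATATA word, and the replicate summits were 36 and 25 bp upstream. No other annotated 5′ end lay within 500 bp of it. The highest other region within 5 kb had a pooled signal of 28.1, and the signal of rpr-1 was 12.6 times that of the highest other region in the pool, 7.78 times in replicate 1 and 14.2 times in replicate 2.

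The regions next to rpr-1 in pooled place were at cox-5A, a cytochrome oxidase subunit gene, with a signal of 362, and at F32B5.9, a U5 snRNA gene, with 351. One step further out, among nuclear regions only, were T06D8.17, an ncRNA gene, at 376 (place 42) and egrh-2 at 349 (place 47). The summit near egrh-2 lay 783 bp upstream of that gene.

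The RNase MRP RNA gene mrpr-1 (E04F6.16, WBGene00045095, 186 nt) lies between genes at 7200233 to 7200418 on the plus strand of chromosome II. E04F6.6 is 667 bp to its left and pcrg-1 is 130 bp to its right on the same strand. Its signal was 70.9 in replicate 1, 76.1 in replicate 2 and 144 in the pooled list, at places 131, 326 and 210. The replicate signals were close in value, 73.5 ± 3.72 (SD, n = 2), but the place was higher in replicate 1, whose scale is lower. The summit was 47 bp upstream in the pool, 10 bp upstream in replicate 1 and 64 bp upstream in replicate 2, the widest scatter among the 4 bound genes. The pooled summit also lay 363 bp upstream of the 5′ end of pcrg-1, so the region falls within 500 bp of a protein-coding gene as well. The highest other region within 5 kb had a pooled signal of 40.6 and lay 4728 bp upstream, and the mrpr-1 peak was 3.55 times as high in the pool, 4.72 times in replicate 1 and 3.16 times in replicate 2. The nearest peaks in place were at Y111B2A.34 and C28A5.1 above, with signals of 144.4 and 144.1, and at lin-9 and the U6 gene Y9C9A.111 below, both at 143.6.

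The Y RNA gene yrn-1 (F55G1.16, WBGene00006967, 105 nt) had the lowest peak of the 4 and the one that differed most between replicates. It lies at 7499508 to 7499612 on the plus strand of chromosome IV, inside an intron (7499386 to 7499666) of F55G1.15 on the opposite strand. It is also covered by F55G1.20, a noncoding RNA annotated at 7499419 to 7499643 on the minus strand, and the pooled summit lay 119 bp inside that gene's 5′ end, so the region cannot be given to either RNA alone. Its signal was 15.4 in replicate 1, 66.4 in replicate 2 and 87.3 in the pooled list. The places were 5709, 479 and 702, so the region was high in replicate 2 and far below the first 2101 in replicate 1. The replicate signals averaged 40.9 ± 36.1 (SD, n = 2). In replicate 1 another region 759 bp downstream of the 5′ end had a signal of 13.8, and the yrn-1 region was 1.11 times as high, against 4.97 times the highest neighbour in replicate 2 and 3.13 times in the pool. The summit lay inside the gene in all 3 lists, 16 bp from the 5′ end in the pool, 6 bp in replicate 1 and 15 bp in replicate 2. Of the peaks at the 4 bound genes it alone had a score below the list maximum, 2.45 against 3.14 in the pool, and its score in replicate 1 was 0.00969. Its neighbours in place were regions at the tRNA gene Y59E1B.t2 and 1379 bp downstream of the 5′ end of C26D10.3 above, both with a signal of 87.4, and Y41D4A.4 at 87.3 and R04F11.2 at 87.2 below.

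The 5S rRNA gene rrn-4.15 (T27C5.18, WBGene00189966, 118 nt) lies at 17428879 to 17428996 on the plus strand of chromosome V. The pseudogene srh-96 is 8580 bp to its left and T27C5.10 is 704 bp to its right. Its signal was 49.6 in replicate 1, 61.6 in replicate 2 and 114.9 in the pooled list, at places 307, 555 and 373, so it was within the first 2101 of each list. The replicate signals averaged 55.6 ± 8.52 (SD, n = 2). Its summit lay 76 bp upstream in the pool and in replicate 2 and 81 bp upstream in replicate 1. This was the farthest upstream of the 4 bound genes. No other region lay within 5 kb in the pool or in replicate 1, and in replicate 2 the only one had a signal of 11.4. The peaks beside it in place were at prcc-1 (signal 114.96) and the tRNA gene T07H6.t1 (114.94) above. Below it were a region 1627 bp upstream of mir-72 (114.7) and that of the snoRNA gene T02E1.9 (114.7).

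For rncs-1 (F55A4.9, WBGene00023069, 847 nt) none of the lists held a region with a summit within 250 bp of the 5′ end. The gene lies at 1011501 to 1012347 on the plus strand of chromosome X, with cutl-21 2078 bp to its left and nlf-1 367 bp to its right. The nearest summits were inside the gene, 629 bp from the 5′ end in the pool, 667 bp in replicate 1 and 535 bp in replicate 2. Their signals were 22.3, 10.2 and 13.5, at places 18324, 18614 and 19677 of 30000, each under the median nuclear signal of its list (23.93, 11.12 and 15.03). The largest signal within 5 kb in the pool was 31.5, at 1029 bp upstream and place 6536.

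**Figure D1:**
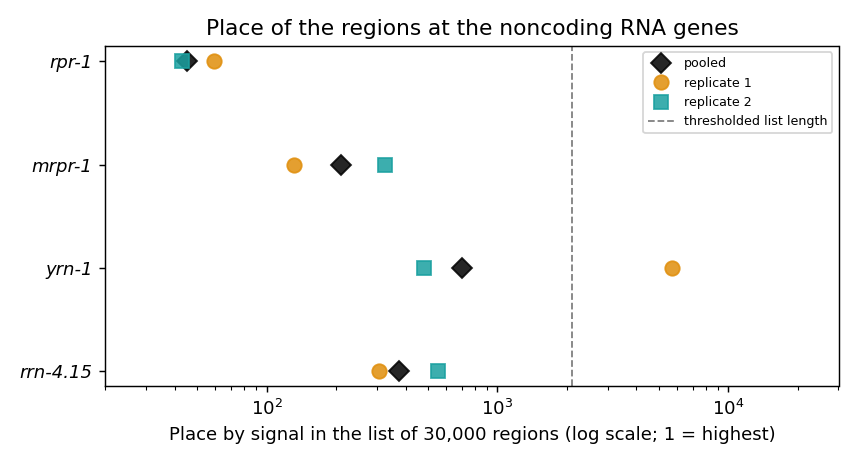
Place by signal in each list of candidate regions (log scale, 1 being the highest) for the 4 genes with a summit within 250 bp of the 5′ end. Diamonds are the pooled list, circles replicate 1 and squares replicate 2. The dashed line marks the 2101 regions of the thresholded list. The only point beyond it is yrn-1 in replicate 1, at place 5709.

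Replicate 2 ran on a higher scale than replicate 1 at most peaks. Of 2075 nuclear thresholded peaks 1993 had a summit within 150 bp in both replicates, and the median log2 ratio of replicate 2 over replicate 1 was 0.75, with 5% of peaks under -0.32 and 5% above 1.78. The log2 ratio was 0.95 at rpr-1, close to that median, 0.31 at rrn-4.15 and 0.10 at mrpr-1. At yrn-1 it was 2.11, which only 1.91% of the matched peaks reached or passed. By contrast 84.8% of matched peaks had a ratio at least as high as mrpr-1, 76.5% as high as rrn-4.15 and 35.6% as high as rpr-1. The pooled signal was close to the sum of both replicates at all 4, at 0.990 of the sum for rpr-1, 0.979 for mrpr-1, 1.07 for yrn-1 and 1.03 for rrn-4.15. Both replicates feed the pooled list, so it is not independent of them, and at yrn-1 most of the sum came from replicate 2.

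**Figure D2:**
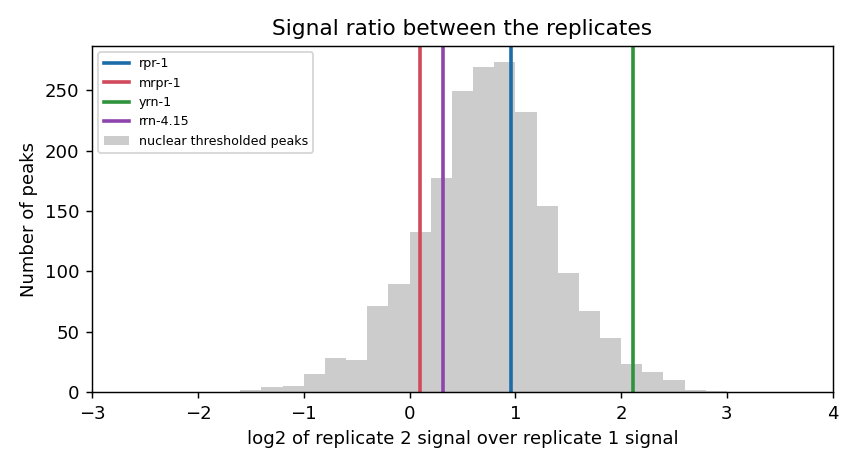
Histogram of the log2 ratio of replicate 2 signal over replicate 1 signal for the 1993 matched nuclear peaks (grey bars, number of peaks), with a coloured line for each of the 4 genes. The yrn-1 line, at 2.11, stands in the upper tail, while the lines of mrpr-1 (0.10), rrn-4.15 (0.31) and rpr-1 (0.95) lie within the bulk.

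The upstream layout was then set beside that of U6 genes. In rpr-1 and yrn-1 exactly 19 bases separated the word pair from TATATA. In mrpr-1 17 bases led to the first TATATA and 19 to an overlapping second TATATA, which begins 32 bases upstream. U6 genes were taken as snRNA entries that hold a conserved stretch of U6, 22 in the annotation, of which 7 were bound. The word pair with at most 2 mismatches was in 6 of the 7 bound U6 genes, in each at 67 bases upstream, and TATATA was in 7 of 7, in each at 31 bases upstream, with 19 bases between. In the other 50 bound genes of the snRNA biotype the pair was in 40, but it lay closer to the RNA, beginning 62 to 55 bases upstream with a median of 58, and TATATA was in 2 of 50. The word pair of rpr-1, mrpr-1 and yrn-1 thus began at 66, 68 and 66 bases upstream, within 1 base of the U6 genes and outside the range of the others. The words themselves were derived from these U6, U-type, SL2 and SmY genes, so their high shares there are not a result.

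**Figure D3:**
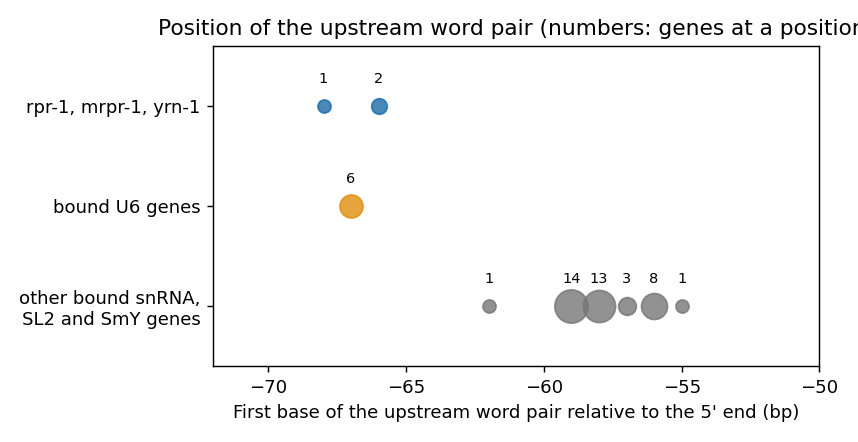
First base of the upstream word pair relative to the annotated 5′ end in bp, with circles for genes and the number of genes at each position above the circle. The 3 genes rpr-1, mrpr-1 and yrn-1 lie at -66 and -68 and the bound U6 genes at -67, all left of the other bound snRNA, SL2 and SmY genes, which lie from -62 to -55.

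Across the genome the combination was rare. The limit of 2 mismatches in the word pair was chosen after seeing the data. The word pair with at most 2 mismatches on the RNA strand lay within 100 bp upstream of 3 of the 5 genes, against 198 of 46886 nuclear genes with such a window (0.422%; 280 genes, 0.597%, on either strand). TATATA, which reads the same on both strands, lay 40 to 15 bases upstream of the same 3 genes, against 856 of 46886 nuclear genes (1.83%). Both together were found at 12 of 46886 genes (0.0256%): rpr-1, mrpr-1, yrn-1, 7 of the 22 U6 genes, the SmY gene smy-1 and the protein-coding gene smi-1. In 10 of the 12 a TATATA began 19 bases after the pair, and these were the 3 genes and the 7 U6 genes. The distance of 19 bases was singled out after these values were seen. Of those 10 genes 9 were bound, against 4.03% of all nuclear genes, but that count was fixed by selection: the 3 genes were chosen by their peaks, and the 6 bound U6 genes are among those the words came from. The tenth, the U6 gene C28A5.7, had its region at place 3022 of the pooled list, under the threshold. The other 6 U6 genes were at places 72 (W05B2.8), 106 (F54D8.7), 212 (Y9C9A.111), 284 (K09C6.12), 1002 (T08B6.62) and 1133 (Y17G9A.85), and rpr-1, at place 45, was above each of them. A match of letters is a description of the sequence and not a measured binding site.

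Summits stood at different distances from the word pair. The pooled summit lay 13 bp downstream of the centre of the pair at mrpr-1, 28 bp at rpr-1 and 74 bp at yrn-1. The 8-base word shared by the largest number of the 57 genes, CGGAACCC, was in 20 of them and occurred exactly at rpr-1 alone among the 5, beginning 69 bases upstream, against 67 of 46886 nuclear genes (0.143%). With 1 mismatch it was also in mrpr-1. At yrn-1 the best match of that word had 3 mismatches, at rrn-4.15 2 and at rncs-1 4. For rncs-1 the best match of the word pair had 6 mismatches of 12 letters, and it had no TATATA in the window.

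**Figure D4:**
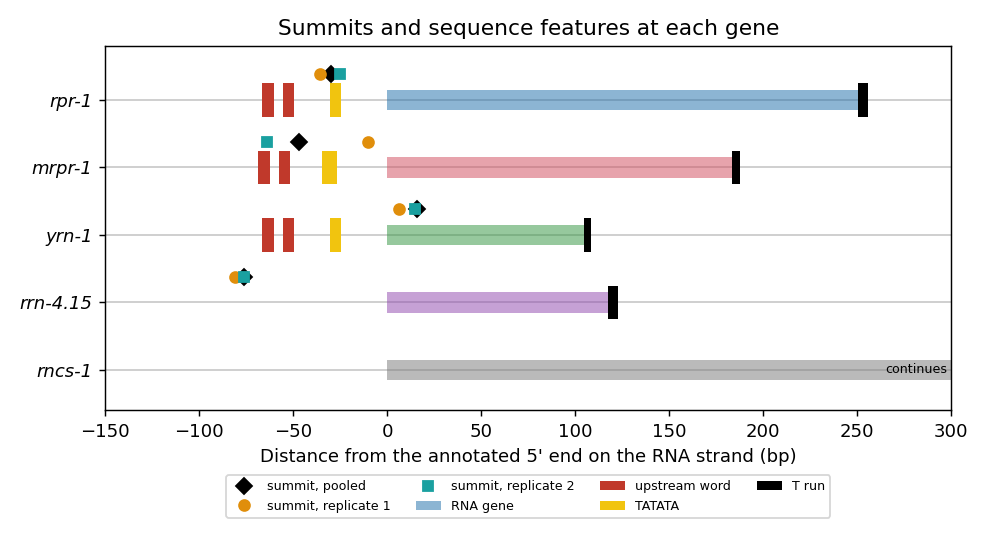
Map of each gene from its annotated 5′ end (0) in bp on the RNA strand, with the RNA as a bar (rncs-1 continues to 847 nt), the upstream words in red, TATATA in yellow, the first run of 4 or more T in black, and symbols for the summit in each list. The words and TATATA align in rpr-1, mrpr-1 and yrn-1, the summits of rrn-4.15 lie farthest upstream, and rncs-1 has none of these marks.

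A run of at least 4 T from 5 bases before to 20 bases after the annotated 3′ end was found in rpr-1, mrpr-1, yrn-1 and rrn-4.15 and not in rncs-1. The share was 98.5% of 612 tRNA genes, 7 of 7 bound U6 genes, 18.0% of the 50 other bound genes of the snRNA biotype and 50.6% of 346 snoRNA genes. Protein-coding genes, whose ends are not set in this way, had such a run at 47.6% of 19973, so a run of 4 T by itself is common. With 5 or more T required, rpr-1 and rrn-4.15 remained, against 80.6% of tRNA genes, 7 of 7 bound U6 genes and 3 of 50 other bound genes of the snRNA biotype. At that length the run was in 27.2% of snoRNA genes and 26.8% of protein-coding genes.

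The gene rrn-4.15 was set beside the rest of its family, since the sequence of 5S genes is repeated. The annotation holds 16 rrn-4 genes: 14 in an array on chromosome V from 17115903 to 17131456, rrn-4.15 at 297422 bp beyond the array's end, and rrn-4.16 at 6169084 to 6169195 on chromosome I. A summit within 250 bp was found at rrn-4.15 and at none of the other 15 genes in any list. No thresholded, pooled or replicate 1 region overlapped the array, and in replicate 2 the only one had a signal of 11.7 at place 27118. The gene rrn-4.16 was 75.8% identical to rrn-4.15.

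The summits at rrn-4.15 lay in sequence that occurs once, whereas the gene itself is repeated. Of the pooled region 226 bp lay upstream of the gene and 74 bp inside it. The 118 bases of rrn-4.15 occurred 12 times in the genome, counting itself, all on chromosome V, and 10 of the 14 array genes held them exactly on their annotated strand. Of the 31-base words inside rrn-4.15, 0 of 88 were unique in the genome, against 220 of 220 in the 250 bp upstream and 94.9% downstream. In the array, 12 of 14 genes had no unique word inside the gene and 10 of 14 had none in the 250 bp upstream. The array gene with the most unique flank, rrn-4.3, had 95.9% unique words upstream and also had no region there, although its annotated strand is opposite to that of its 5S match, and on the other side 12.3% of words were unique. Reads from repeated sequence may not have been placed, depending on a mapping filter that is not given in the sources used here, so the lack of regions at most of the array is not a measure of binding. Over the 120 bp upstream, identity to rrn-4.15 was 63.1 to 64.3% across the 10 array genes with the exact sequence. The lower values among the rest, down to 37.98%, include 3 genes (rrn-4.2, rrn-4.3 and rrn-4.4) annotated on the strand opposite to their 5S match, where the flank compared is not that of the 5S sequence. The genes rpr-1, mrpr-1 and yrn-1 were unique throughout, at 100% of words upstream and inside the gene, and rrn-4.16 was as well. For rncs-1 86.4% of words upstream and 90.5% inside the gene were unique, so most of its sequence occurs once. The 4 nuclear rRNA genes outside the 5S family had no summit within 500 bp in any list. Unique words were not counted for them, so this lack is not a measure of binding either.

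**Figure D5:**
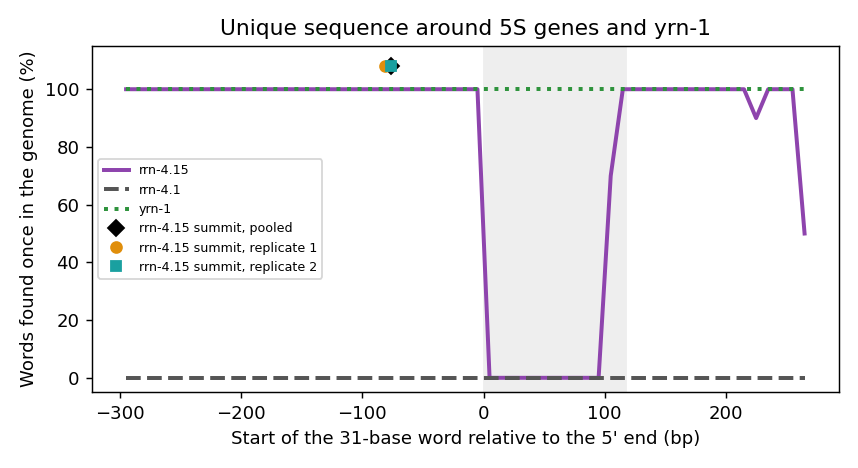
Share of 31-base words that occur once in the genome (%), in steps of 10 bp by the start of the word relative to the 5′ end (bp), for rrn-4.15 (solid), the array gene rrn-4.1 (dashed) and yrn-1 (dotted). The grey band is the rrn-4.15 gene and the symbols its summits, at -76 and -81. Unique words fall to 0% inside rrn-4.15 and are at 100% under its summits, while rrn-4.1 has none in the window.

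The protein-coding genes of enzymes and partners that act with these RNAs were looked up in the same lists. From a list of 12, 11 matched the annotation and 2 of these (18.2%) had a thresholded summit within 500 bp, against 7.04% of 19973 protein-coding genes. The list was drawn up with earlier results known and is too short to set apart from that share. The 2 were ssb-1, the worm La gene, whose product binds the U-rich 3′ ends of RNA polymerase III transcripts, and rpl-5, a ribosomal protein that binds 5S rRNA. At ssb-1 the signal was 35.4 in replicate 1, 60.9 in replicate 2 and 88.5 in the pool (place 681), with the summit 433 bp upstream and nearer to ubr-4, at 323 bp upstream of that gene. At rpl-5 it was 33.0, 68.7 and 107 (place 432), with the summit 383 bp upstream of rpl-5 but 18 bp inside F54C9.17, an annotated ncRNA. Both summits were thus closer to another gene's 5′ end. Of the 9 without a thresholded summit, dcr-1, which encodes Dicer, had a pooled region at signal 36.0 and place 4465, and rpl-11.1, rpl-11.2 and rde-4 had pooled regions between 21.6 and 23.4. The genes popl-1, for the Pop1 protein of RNase P and RNase MRP, rop-1, for the worm Ro protein, adr-1, adr-2 and crn-3 had no pooled region. Of these, popl-1 had a candidate region in replicate 1 (signal 9.07) and in replicate 2 (19.6). In replicate 1 alone, adr-1 (10.6) and crn-3 (10.7) had one, and rop-1 and adr-2 had none in either replicate.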

How the data were processed

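Peak lists of SNPC-3.4 ChIP-seq from 2 biological replicates of 1 group were used. The authors deposited 30000 candidate regions per replicate and for the pool, and a thresholded list described in the deposited notes as the optimal set by irreproducible discovery rate, called against a control on ce11 and ce10. The ce10 lists were not used. Which peak caller, aligner and mapping filter made them is not given in the sources used here. No scale is stated for the deposited signal. It was used to order regions inside a list, and its means, ratios and sums across lists are descriptions of values whose scales differ. Some values of the deposited score are below 0, so it was given for description. Summits are the authors' offset added to the region start. Regions have 1 fixed width per list, 300 bp in the pool, so summit and signal, not width, carry the information. No read counts are in the lists, and depth is unknown.

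Coordinates are 1-based on WBcel235, which is ce11, with genes from Ensembl release 115 and RefSeq symbols and sequence. A summit was given to a gene within 250 bp of its 5′ end (500 bp for protein-coding genes). Where several regions qualified, the highest was taken. Word counts used 100 bp upstream, identity used global alignment, and unique words were 31 bases long on both strands. No test was run, because the genes were chosen on these signals. The genes, lists and words were chosen with earlier results of these data known. Genes named are the 5, their neighbours and 5′ ends within 500 bp of a summit, the rrn-4 family, a partner list, the peaks next in place, and the genes with both words and TATATA, which were named after their values were seen. The listed exos-10 was not matched. The word pair search and the matching of summits and regions to genes were tested on simulated data. The unique word count was not part of that test. The alternatives were other windows, overlap in place of a summit, the 1000 highest regions, each replicate alone, nuclear regions only and other word settings. Python 3.11.15, NumPy 2.4.6, pandas 2.3.3, Biopython 1.88 and matplotlib 3.10.9 were used.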

Additional observations from a re-analysis of the deposited data

How the results depend on the processing

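The 4 bound genes were the same with windows of 100 and 500 bp, with overlap in place of a summit, with the 1000 highest regions and with replicate 2 alone. With replicate 1 alone yrn-1 was lost, so the count ran from 3 to 4 over the single replicates. The bound share of all nuclear genes was 2.22% with the window of 100 bp and 2.22% with the 1000 highest regions, and 3.52 to 4.02% over the single replicates. Over the single replicates the place of rpr-1 ran from 43 to 59, that of mrpr-1 from 131 to 326, that of rrn-4.15 from 307 to 555 and that of yrn-1 from 479 to 5709. The summit of mrpr-1 moved most, from -64 to -10 bp, while that of rpr-1 lay from -36 to -25 bp, that of yrn-1 lay 6 to 15 bp inside the gene and that of rrn-4.15 from -81 to -76 bp. With nuclear regions only rpr-1 was at place 25. The number of genes with the upstream word was 2 with 1 mismatch in the 8-base word and 3 with the word pair and 2 mismatches, the last a setting chosen after seeing the data, against 1 for the exact word. With 5 or more T at the 3′ end it was 2, against 4. The looser or stricter match makes these counts by construction, and the cause of the yrn-1 difference was not tested. Of 56 alternative values 10 moved by more than the limit, which was 1 SD of the replicates for summits and for the log2 of places and 1.5 times for counts and shares, and 0 changed sign. Where the replicates lie far apart, as at mrpr-1, that SD is wide, so a value inside it need not be close. No paired analysis was possible because there was 1 group. With 2 replicates and no read counts, differences in signal between these genes have no error beyond the spread of the replicates.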

Other observations

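The word pair with at most 2 mismatches was also in 33 of 93 bound snoRNA genes (35.5%), none of which held TATATA 40 to 15 bases upstream. Of 356 bound tRNA genes 3 held the pair (0.843%) and 3 held TATATA, and none held both. The SmY gene smy-1, at place 140 of the pooled list, held the pair 59 bases upstream with 10 bases to TATATA, so it had both words at another distance than rpr-1, mrpr-1, yrn-1 and the U6 genes. The protein-coding gene smi-1, the only other one with both words, had the pair downstream of TATATA and no pooled region within 250 bp. Both genes were named after their values were seen.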
